A study of Mus musculus with 2 samples.

Results

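The miR-144 and miR-451 cluster is a pair of microRNA (miRNA) genes, known as erythroid, that lie next to each other on mouse chromosome 11. Its members were taken by name from the deposited counts: the precursors (hairpins) mmu-mir-144, mmu-mir-451a and mmu-mir-451b, which are 3 of 1187 listed precursors. Because mmu-mir-451a and mmu-mir-451b occupy the same bases on opposite strands, they form 1 locus and the cluster holds 2 loci. Small RNA had been sequenced from mouse hindlimb muscle made ischemic by removing the femoral artery, at day 1 after surgery. The hypercholesterolemic library (HC) came from ApoE-/- mice, which the series' design text describes as fed a high-fat diet. The normocholesterolemic library (NC) came from control C57Bl/6 mice, whose diet the labels do not give. Both groups had the ischemic surgery, so no library of unoperated muscle entered the comparison. Age, the strain of the ApoE-/- mice and the number of mice behind each library are not given in the labels, and genotype and diet cannot be told apart. The comparison asks how the members differ between ischemic muscle of the hypercholesterolemic and of the normocholesterolemic mice.

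MicroRNAs are cut from hairpins and guide Argonaute proteins to messenger RNAs, mainly through the seed, the bases at positions 2 to 8 of the mature strand. The miR-144 and miR-451 hairpins are transcribed together under the erythroid factor GATA1 and accumulate as red cells mature. miR-144 follows the usual route, in which Drosha and then Dicer cut the hairpin, and it has been reported to repress Dicer itself in erythroid cells and the cholesterol exporter Abca1 in liver and macrophages. miR-451 bypasses Dicer: its short hairpin is loaded whole into Ago2, which slices it, and the product is then trimmed. miR-451 protects red cells against oxidant stress, in part by repressing Ywhaz, which encodes the adaptor protein 14-3-3 zeta. In muscle with its vessels, the red cells carried in blood are the usual source of both miRNAs.

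The mature products are shown because the deposited counts name hairpins only, so that the sequences tell which molecules each count can hold. They are RefSeq sequences (GRCm38.p6), written 5′ to 3′ with the seed in capitals.
mmu-miR-144-5p: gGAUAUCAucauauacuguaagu
mmu-miR-144-3p: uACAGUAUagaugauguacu
mmu-miR-451a: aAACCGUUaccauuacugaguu
mmu-miR-451b: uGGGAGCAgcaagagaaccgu
The 4 seeds differ, so no members form a seed family with each other. Outside the cluster, miR-101a-3p was the only mature miRNA in the RefSeq table, among those with a listed precursor, that shared bases 2 to 7 of a member's mature strand. It matches the first 7 bases of miR-144-3p and differs at the last base of the seed. No other mature miRNA there shared the whole seed of any of the 4.
mmu-miR-101a-3p: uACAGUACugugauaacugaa

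The hairpins, again from RefSeq (GRCm38.p6) and 5′ to 3′, show how the products sit in them, with the mature strands in capitals. mmu-mir-144 lies at chr11:78073005-78073070 on the plus strand, mmu-mir-451a at chr11:78073170-78073241 on the plus strand, and mmu-mir-451b at the same bases on the minus strand.
mmu-mir-144: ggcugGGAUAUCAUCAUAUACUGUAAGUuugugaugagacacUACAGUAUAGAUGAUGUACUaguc
mmu-mir-451a: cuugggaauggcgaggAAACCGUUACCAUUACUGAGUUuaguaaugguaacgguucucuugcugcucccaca
mmu-mir-451b: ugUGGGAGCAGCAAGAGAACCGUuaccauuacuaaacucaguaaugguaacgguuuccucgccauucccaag
The hairpins span 66 bases for mmu-mir-144 and 72 bases for mmu-mir-451a and mmu-mir-451b. RNAfold predicted a single stem with 1 terminal loop for each, at -28.6 kcal/mol for mmu-mir-144, -43.3 for mmu-mir-451a and -37.5 for mmu-mir-451b. In mmu-mir-144 the 5p and 3p products lie in opposite arms, and neither reaches into the predicted terminal loop of 6 bases. In mmu-mir-451a the mature strand runs from position 17 to 38 of the hairpin and takes in all 4 bases of the predicted loop. It was the only hairpin with a mature strand across the whole loop among 173 compared hairpins that had a RefSeq sequence and a single predicted loop, with 1 hairpin counted per set of copies. This geometry is the feature that the Ago2 route uses.

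The cluster is compact and stands outside other genes in GENCODE M21 (GRCm38). A gap of 99 bases separates the mmu-mir-144 hairpin from that of mmu-mir-451a. No other gene overlaps the span of the hairpins, and no other listed precursor lies within 10 kb. The nearest protein-coding genes are Eral1, which encodes a mitochondrial ribosome assembly GTPase and ends 134 bases beyond the mmu-mir-451a hairpin on the minus strand, and Flot2, which encodes the membrane raft protein flotillin-2 and ends 12570 bases before mmu-mir-144.

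**Figure D1:**
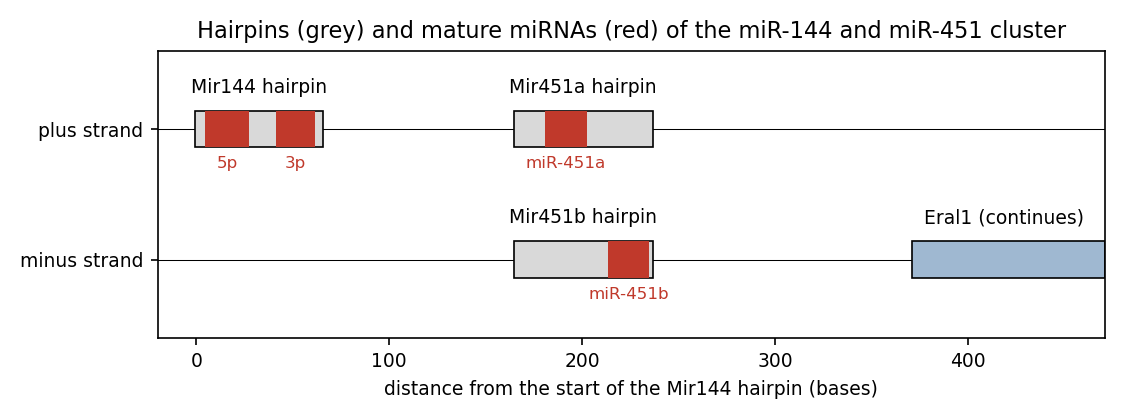
Map of the cluster. The x axis gives the distance in bases from the start of the Mir144 hairpin, rows are strands, grey boxes are hairpins and red boxes mature miRNAs. The hairpins of Mir451a and Mir451b occupy the same bases on opposite strands, 99 bases beyond Mir144, and Eral1 is drawn only in part.

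Counts for the 2 strands of the miR-451 locus were equal. Both mmu-mir-451a and mmu-mir-451b were listed with 15799 counts in HC and 16161 in NC, and the mmu-mir-451b hairpin is the exact reverse complement of the mmu-mir-451a hairpin. As RNA, the mature strands are distinguishable: mature miR-451a matches the mmu-mir-451b hairpin with 4 mismatches at best, and its longest exact stretch there is 16 bases. Of 19 pairs of precursors that overlap on opposite strands and have counts in both libraries, 7 were equal in both. The counts therefore give the level of the locus and do not separate miR-451a from miR-451b. The locus is called miR-451 below, and its values are those of either precursor.

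The libraries held 31198050 precursor counts in HC and 43848576 in NC. CPM below stands for counts divided by a library size scaled by TMM (trimmed mean of M-values), times 1e6, and 222 precursors that averaged 10 CPM or more over the libraries were compared. Each group held 1 library, so there is no estimate of the spread between mice and no test. Every interval is a 95% interval of counting error, which describes these libraries only, and amplified reads that carry no molecular identifier are not separate molecules. Muscle identity was plain from miR-133a-1, at 65127 CPM in HC and 65383 in NC. Counts outside all precursors made up 55.9% of listed counts in HC and 44.1% in NC, and their part in the values below was not tested.

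Both loci were higher in the HC library, miR-144 by more than miR-451. miR-144 had 4098 counts in HC and 3422 in NC, or 125 CPM against 81.8 CPM. HC was thus 1.53-fold higher (1.47 to 1.61), a log2 fold of 0.62 (0.55 to 0.68). miR-451 had 483 CPM in HC and 386 CPM in NC, which made HC 1.25-fold higher (1.22 to 1.28), a log2 fold of 0.32 (0.29 to 0.36). In the raw counts the order of the libraries differed between the loci, since miR-144 had more counts in the smaller HC library and miR-451 had slightly fewer. In bulk tissue, more cells of a type and more RNA per cell cannot be told apart.

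Set against the other precursors, the difference in miR-144 was among the larger ones and that in miR-451 was moderate. All 3 member precursors had a counting interval above equality, as did 39.6% of the 222 compared precursors, so at this depth such an interval is common. Only miR-144 was at least 1.5-fold higher with an interval above equality, a mark that 2.7% of compared precursors reached, 6 in all. It missed that mark with the authors' denominators, described below, at 1.42-fold. None of the members was 2-fold higher, which 1.35% were. By log2 fold, miR-144 stood at rank 6 from the top of 222 and miR-451 at rank 24. Next to miR-144 in that order, with 1 precursor per set of copies, were miR-499 at 0.63 (0.42 to 0.85) and miR-434 at 0.56 (0.53 to 0.58), whose intervals overlap its own. Next to miR-451 were miR-100 at 0.33 (0.31 to 0.36) and miR-541 at 0.30 (0.27 to 0.34), which it also overlaps. Among the 5 compared precursors nearest in level to each locus, described below, no interval lay above that of the locus. They were chosen by their level in both libraries, which also limits how far their folds can differ from that of the locus. This outcome therefore does not place the loci among precursors of like level.

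**Figure D2:**
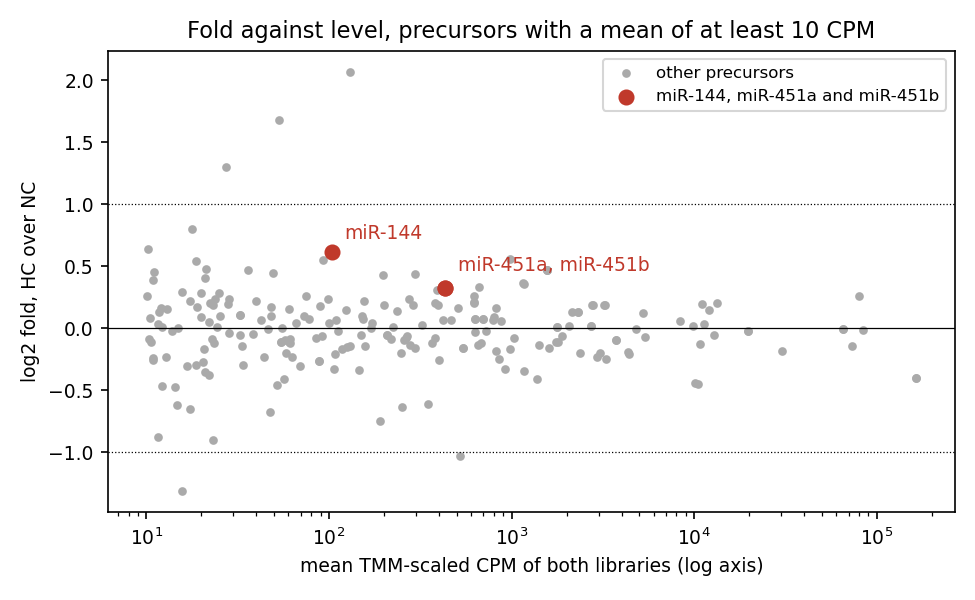
Log2 fold of HC over NC (y axis) against the mean TMM-scaled CPM of both libraries (x axis, log scale) for 222 precursors, with dotted lines at 2-fold. The members (red) lie above 0 and under the 2-fold line, miR-144 at 0.62 and the coincident miR-451a and miR-451b at 0.32.

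The size of both folds depended on how the libraries were scaled, while the sign did not. With plain totals the log2 folds were 0.75 for miR-144 and 0.46 for miR-451, and with the authors' own denominators they were 0.50 (0.44 to 0.57) and 0.21 (0.18 to 0.24). These choices shift every precursor by 0.13 and by -0.11. The share of precursors with an interval above equality was 60.8% of 222 with plain totals. With the authors' denominators it was 24% of 233, since the minimum of 10 CPM was applied to the values of that scaling. The members lay above equality in both. In the authors' own RPM values, the same data read 150.5 in HC and 106 in NC for miR-144, and 580 and 501 for miR-451. Under all 7 scalings miR-144 kept a higher fold than miR-451, since a change of library size moves both alike.

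**Figure D3:**
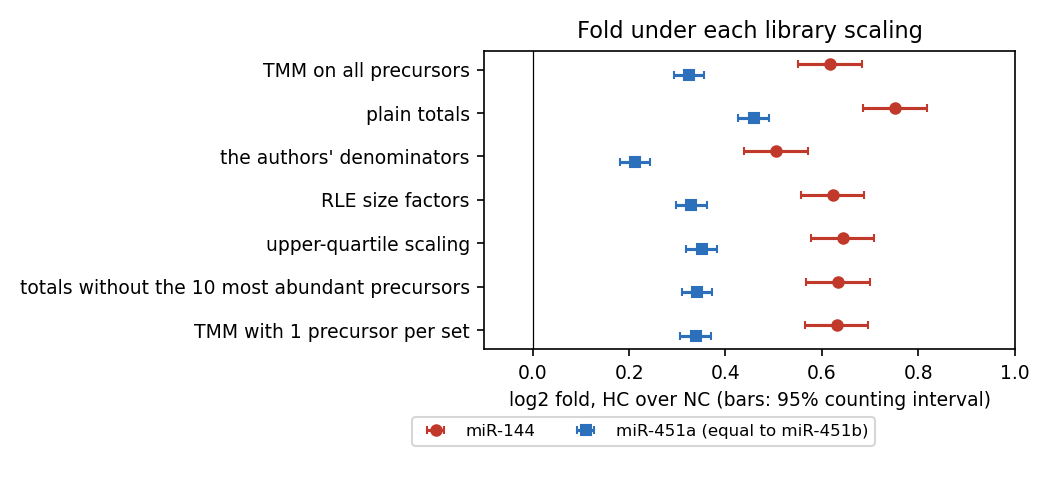
Log2 fold of HC over NC (x axis) for miR-144 (red circles) and miR-451a (blue squares, equal to miR-451b) under each of 7 library scalings (rows), with 95% counting intervals as bars. Every interval lies above 0, from 0.21 to 0.46 for miR-451a and from 0.50 to 0.75 for miR-144 in the central values.

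The balance of the 2 loci shifted toward miR-144 in HC, a comparison made within each library that needs no scaling. The HC library held 3.86 miR-451 counts per miR-144 count (3.72 to 3.99) and the NC library 4.72 (4.55 to 4.90), and these intervals do not overlap. Relative to NC the ratio in HC was 0.816 (0.776 to 0.859), a log2 difference of -0.29 (-0.37 to -0.22). Per base of hairpin, the ratios were 3.53 in HC and 4.33 in NC. miR-451 thus had more counts than miR-144 in both libraries. Adapter ligation favours some miRNA ends over others, so a ratio between 2 miRNAs is not a ratio of molecules, and the miR-144 count sums both of its arms.

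A difference of this size between cluster mates was not rare in these libraries, though most of the pairs that reached it came from 1 region. For 98 pairs of compared precursors on the same strand within 10 kb of each other, formed by 103 precursors, the absolute difference in log2 fold had a median of 0.18 and quartiles of 0.10 and 0.34. The miR-144 and miR-451a pair, at 0.29, was equalled or exceeded by 31 of the 98 pairs, itself included (31.6%). At a mean of at least 50 CPM, where low counts weigh less, 10 of 42 pairs (23.8%) reached it. The widest pair was miR-376b and miR-381 of the Dlk1-Dio3 region on chromosome 12, with a difference of 1.44. Most of the 31 pairs lie in that region. Pairs from 1 large cluster share precursors and are not independent, so 31.6% is not a share of separate clusters. Copies also enter repeatedly: miR-133a-1 with miR-1a-2 and miR-1a-1 with miR-133a-2, both at 0.47, hold nearly the same counts and are among the 31.

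**Figure D4:**
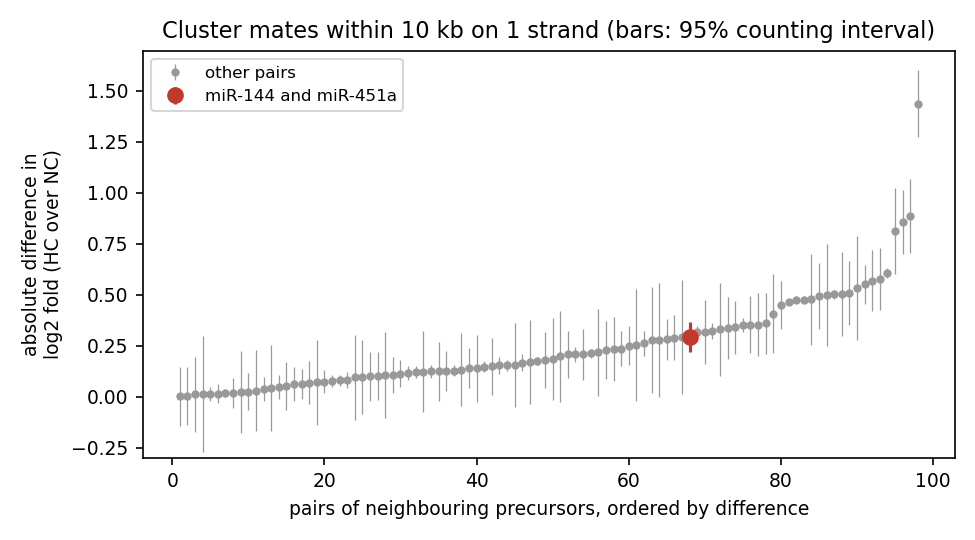
Absolute difference in log2 fold (y axis) for 98 pairs of neighbouring precursors within 10 kb on 1 strand, ordered along the x axis, with 95% counting intervals as bars. The miR-144 and miR-451a pair (red, 0.29) lies within the range of the other pairs, above their median of 0.18.

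In level, the cluster was a minor part of the muscle profile. Of the HC precursor counts, miR-451 took 0.0506% (Clopper-Pearson interval 0.0499 to 0.0514%), and of the NC counts 0.0369% (0.0363 to 0.0374%), and stood at rank 81 and rank 87 of all precursors. miR-144 took 0.0131% (0.0127 to 0.0135%) and 0.00780% (0.00754 to 0.00807%), at ranks 122 and 135. Both loci therefore ranked somewhat higher in HC. These totals and ranks count copies and both strands of a locus separately, so reads shared by such precursors enter repeatedly and the shares are low. With 1 precursor per set of copies, miR-451 stood at ranks 67 (HC) and 73 (NC), and miR-144 at 106 and 118. Over the 2 libraries, the levels nearest to those of miR-144, by Euclidean distance in log2 CPM, were those of miR-208b, miR-425, miR-328, miR-744 and miR-152, at distances of 0.23 to 0.42. miR-208b, hosted by the slow myosin gene Myh7, had 109.6 CPM in HC and 74.97 in NC. Nearest to miR-451 were miR-140, miR-128-1, miR-541, miR-99a and miR-196a-1, at distances of 0.19 to 0.26. miR-541 had 431 CPM in HC and 349.6 in NC, the pair of values most like miR-451 in fold among these 5.

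Other miRNAs abundant in red cells did not move with the cluster as a group. Of 15 precursors listed for this, 13 were compared, and 6 had an interval above and 7 an interval below equality, with a median log2 fold of -0.08. Over all 222 compared precursors, 88 lay above and 97 below, with a median of 0.00. The split of the list was 7 above and 4 below with plain totals, where all 222 gave 135 and 47. With the authors' denominators it was 4 above and 7 below, where all 222 gave 55 and 131. The 13 form 11 sets of copies, since miR-486a repeats miR-486b and miR-16-1 nearly repeats miR-16-2. The median over these sets was also -0.08. miR-185 and miR-363 fell under 10 CPM, at log2 folds of 0.27 (0.05 to 0.50) and -0.13 (-0.63 to 0.37). None of the 13 reached 2-fold in either direction, which only 5 of all 222 did. None had a log2 fold as high as that of miR-144, which itself stood at rank 6 of 222. Neither count sets the list apart from the other precursors. In bulk muscle, the counts also do not tell which cells the listed miRNAs came from.

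miR-486, which is abundant in red cells and also made in muscle from the Ank1 locus, went the other way. It had 141556 CPM in HC and 187306 CPM in NC, a log2 fold of -0.40, and stayed below 0 under every scaling run. Per 1000 miR-486a counts there were 0.886 counts of miR-144 in HC and 0.436 in NC, 2.03-fold more in HC (1.94 to 2.12), and 3.41 and 2.06 counts of miR-451, 1.66-fold more (1.62 to 1.69). miR-92a, cut from the miR-17-92 cluster and its paralog, was also lower in HC under every scaling run, at -0.25 for miR-92a-1 and -0.20 for miR-92a-2.

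The 4 listed precursors of miR-15 and miR-16, which repress cell cycle genes, had values above 0. Relatives with the same seed were not on the list, and of these, named after their values were seen, miR-497a was at -0.12, miR-322 at -0.09 and miR-195a at 0.01. miR-16-1 and miR-16-2, copies with nearly equal counts, were both at 0.18, with miR-16-1 at 3438 CPM in HC and 3029 CPM in NC. miR-15b, at 41.8 CPM in HC and 30.2 in NC, had the highest fold of the list at 0.47 (0.36 to 0.58). miR-15a was at 0.15, a value whose interval held 0 with the authors' denominators. Both cluster loci were higher relative to miR-16-1 in HC: per 1000 miR-16-1 counts miR-144 had 36.5 counts in HC and 27.0 in NC, and miR-451 had 140.6 and 127. miR-425 was at 0.24 and stayed above 0 under every scaling run. The remaining 4 had no firm direction, as their sign or their call turned with the scaling: miR-106b at 0.15, miR-25 at -0.08, miR-93 at -0.10 and miR-484 at -0.08.

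**Figure D5:**
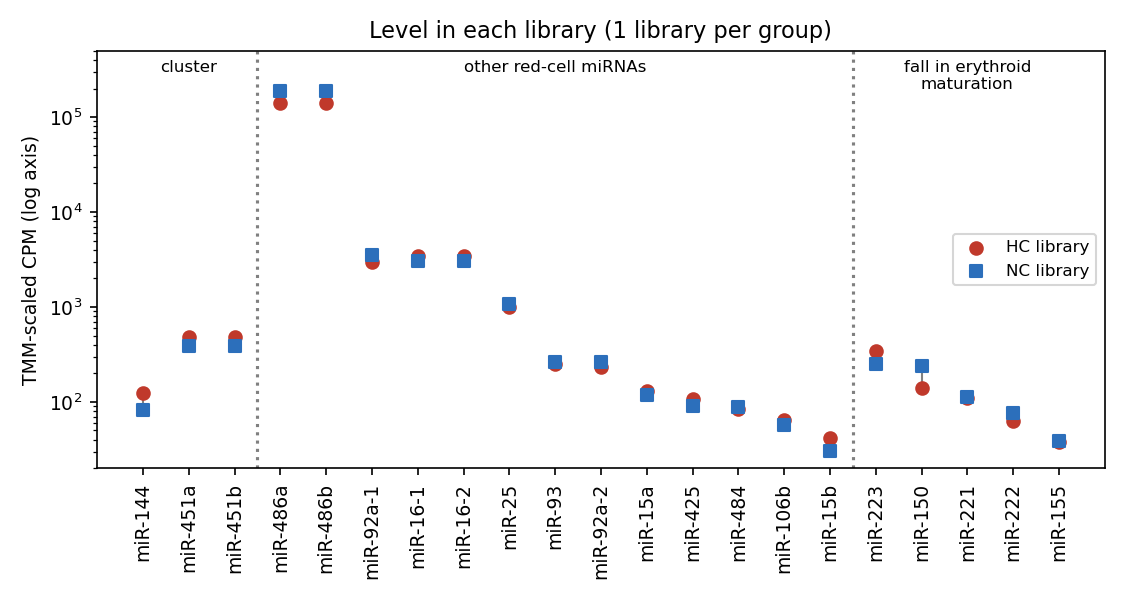
TMM-scaled CPM (y axis, log scale) in the HC library (red circles) and the NC library (blue squares) for the cluster, for 13 precursors (11 sets of copies) of other red-cell miRNAs and for 5 miRNAs that fall as erythroid cells mature. The cluster lies higher in HC, whereas miR-486 (141556 against 187306 CPM) and miR-150 lie lower.

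miRNAs known to decline as erythroid precursors mature were mixed. Of 5 compared, 1 lay above and 2 below equality, with a median log2 fold of -0.05, beside 88 above and 97 below among all 222. With the authors' denominators 4 of the 5 lay below and the median was -0.16, where all 222 gave 131 below and a median of -0.11. miR-150, a lymphocyte miRNA that represses Myb, was lowest at -0.75 (-0.80 to -0.70), with 142 CPM in HC and 238 in NC. miR-222, which represses the stem cell factor receptor Kit, was at -0.31 (-0.39 to -0.23), while its cluster mate miR-221 was at -0.03 with an interval that held 0. miR-223, a neutrophil miRNA that represses Lmo2, was higher at 0.44 (0.40 to 0.48). The interval of miR-155 also held 0, at -0.05. The signs of miR-150, miR-222 and miR-223 held under every scaling run, whereas miR-221 and miR-155 changed sign with plain totals and lay below equality with the authors' denominators.

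White cell and vessel miRNAs were read beside the cluster. On the leukocyte list, 2 of 6 precursors lay above and 1 below equality, where all 222 gave 88 and 97. miR-150, miR-155 and miR-223 are also on the list of declining miRNAs, so the lists are not separate. miR-142a and miR-142b overlap on opposite strands with nearly equal counts, so they form 1 set. The split turned with the scaling, to 4 above and 1 below with plain totals and 1 above and 4 below with the authors' denominators. That of all 222 turned likewise, to 135 and 47 and to 55 and 131. The pan-leukocyte miR-142a was at 0.01, at 1784 CPM in HC and 1771 in NC, and miR-146a was at 0.14. With plain totals miR-142a was at 0.14 and with the authors' denominators at -0.10, so it has no firm direction, and the interval of miR-146a held 0 with the authors' denominators. Summed over 1 precursor per set of copies, the leukocyte list had 2549.5 CPM in HC and 2522 in NC. The endothelial miR-126a was at 0.03, without a firm direction across scalings. Relative to miR-142a, miR-144 was 1.52-fold higher in HC (1.453 to 1.595) and miR-451 1.24-fold higher (1.21 to 1.27). Relative to miR-126a the values were 1.498 (1.43 to 1.57) and 1.22 (1.20 to 1.25), and relative to the muscle miRNA miR-133a-1 they were 1.54 (1.47 to 1.61) and 1.26 (1.23 to 1.28).

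The muscle miRNAs themselves were not at 1 level between the libraries, and the excess of the cluster depended on which of them it was set against. Of 9 listed precursors, which form 6 sets of copies, 5 lay above and 4 below equality, where all 222 gave 88 and 97. The median log2 fold was 0.47, or 0.23 with 1 precursor per set of copies. The copies miR-133a-1 and miR-133a-2, both counted below at -0.01, changed sign with plain totals. With plain totals 7 lay above and 1 below, where all 222 gave 135 and 47. miR-1a-1, the precursor of the muscle-specific miR-1, was at 0.47, with 1826 CPM in HC and 1320 CPM in NC, and shares nearly all its counts with miR-1a-2 and miR-1b. miR-208b was at 0.55 and miR-499, hosted by Myh7b, at 0.63. Relative to miR-1a-1, miR-144 was 1.11-fold higher in HC (1.06 to 1.16) and miR-451 was 0.905-fold as high (0.883 to 0.928). The fold of miR-1a-1 thus lay between those of the 2 loci.

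miR-223 was set against the cluster as the neutrophil miRNA of the lists. Per 1000 miR-223 counts there were 368 miR-144 counts in HC and 326 in NC, 1.13-fold more (1.07 to 1.19), and 1420.5 miR-451 counts in HC and 1539 in NC, 0.923-fold as many (0.892 to 0.956). The fold of miR-223 thus lay between those of the 2 loci. Against miR-150, miR-144 was 2.57-fold higher in HC (2.43 to 2.73) and miR-451 2.10-fold higher (2.02 to 2.19). The amount of blood left in either muscle sample was not measured, and its part in these values was not tested.

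The miRNA nearest to miR-144-3p in seed differed from it in both level and direction. Its precursor mmu-mir-101a (chr4:101346945-101347027, minus strand) had 4101 CPM in HC and 4730.4 CPM in NC, a log2 fold of -0.21 (-0.22 to -0.20). It was thus far more abundant than miR-144 in both libraries, with 134032 counts where miR-144 had 4098 (HC), and 197997 where it had 3422 (NC). The counts of these precursors also include their 5p arms, which carry other seeds.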

How the data were processed

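In all, 2 small RNA libraries of ischemic hindlimb muscle were analysed, 1 hypercholesterolemic and 1 normocholesterolemic. Trizol and a mirVana kit served for extraction and TruSeq Small RNA reagents for the libraries, per the labels' protocols. CASAVA 1.8.2, TopHat2 2.0.10, HTSeq 0.5.4 and the build mm10 are named, per the submitters' processing notes. Not given in the sources used here: adapter trimming, strand use and the handling of multiply aligned reads. The authors deposited whole-number read counts per precursor and a scaled signal that the file headers call RPM, with denominators of 27222821 (HC) and 32252170 (NC). Rows that name no precursor stayed out of library sizes.

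Library sizes were scaled by TMM (edgeR 4.0.16, R 4.3.3, no edgeR test). Fold intervals are exact conditional binomial, shares are exact Clopper-Pearson, and a ratio of 2 precursors compared across libraries has the conditional exact interval of the odds ratio for miR-451 over miR-144 and a normal approximation on the log scale for ratios to other miRNAs (SciPy 1.17.1, Python 3.11.15). Precursors that overlap, or members of 1 family within 1% in both libraries at 100 or more counts, formed sets of copies. RNAfold 2.7.2 predicted hairpin structures. All 1187 precursors matched GENCODE M21 coordinates and 969 matched RefSeq hairpins. The procedure was tested on simulated data that held counting error only, which cannot show how it handles differences between mice. No p-value was formed, since each group held 1 library. Named miRNAs were the members, listed miRNAs of at least 10 CPM, seed matches and the 5 nearest in level per locus; neighbours in the order of folds and the widest pair of cluster mates were chosen after their values were seen. Members and lists were chosen with earlier results of these data known. Alternatives covered the scaling, the filter on low counts and the treatment of copies.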

Additional observations from a re-analysis of the deposited data

Results flagged for a closer look

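Counts outside all listed precursors, which entered no comparison, made up 55.9% of listed counts in the HC library and 44.1% in the NC library. They are given because the share in HC is above that in the control. What these counts hold was not analysed here.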

How the results depend on the processing

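Both loci were higher in HC under each of the 6 alternative scalings. The log2 fold of miR-144 was 0.75 with plain totals and 0.50 with the authors' denominators. That of miR-451a and miR-451b was 0.46 and 0.21. The other 4 scalings left each within its counting interval. The number of precursors at least 2-fold higher or lower was 5 of 222. It became 10 when the 10 most abundant precursors were left out of the totals, which raised every CPM so that 289 passed the floor of 10 CPM. It was 13 with a minimum mean of 1 CPM and 3 with a minimum of 50 CPM. With no CPM filter, among precursors with more than 3 counts in at least 1 library, it was 35. The cause was not tested beyond the number of precursors admitted. With no filter beyond more than 3 counts in each library, 81.1% of precursors lay below miR-451 in fold, against 88.7% at 10 CPM. Summing both miR-451 precursors gave 7.71 miR-451 counts per miR-144 count in HC and 9.45 in NC, since each locus count then enters for both strands, and left the ratio of these ratios at 0.816. The count of cluster mate pairs with a minimum mean of 50 CPM was chosen after seeing the data. No paired analysis was possible because each group holds 1 library. With 1 library per group, no library could be left out, and the counting intervals do not cover differences between mice.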
